A study of Mus musculus with 8 samples.

Results

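Described here are 39 genes of mitosis and of the G2/M stage of the cell cycle, chosen by name as mitotic kinases, cyclins, kinetochore proteins, kinesins, condensins and their partners. All 39 were found among the 39056 genes of the deposited count table. The rule lists them by name alone, though the names were put together with earlier results of these data known. RNA was sequenced from sorted CD4+ T cells of 2 retrogenic clones, SAS and ANT, and the title of the series is about self-reactive CD4+ clones that take on T follicular helper-like features at steady state. In a retrogenic mouse the T cells grow from bone marrow progenitors that carry a receptor gene delivered by a retrovirus. The SAS group held 4 libraries (replicates 1, 2, 3 and 6) of cells whose retrovirus carried the SAS TCRα, and the ANT group held 4 libraries (replicates 1, 3, 4 and 5) of cells whose retrovirus carried the ANT TCRα. Both groups shared the genotype CD4-Cre TCRβtg Tcra-/-, that is a Cre transgene under the CD4 promoter, a TCRβ transgene and no endogenous TCRα, in mice of the C57BL/6J strain. Cells of spleen and lymph nodes were combined before the sort, so organs cannot be told apart, and each clone stands for a single receptor whose α chain came from a viral construct and not from its own locus. The labels give no ages and do not state that each library came from its own mouse, so the p-values measure the spread between these libraries, part of which may be technical.

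Genes of this kind are made in waves. Most are silent in resting lymphocytes, where the DREAM complex holds their promoters off, and they are switched on late in the cycle by B-MYB with the MuvB core and by FOXM1, so that their messages peak in G2 and mitosis. Their products condense the chromosomes, build the spindle, attach it to the centromeres, hold the cell at a checkpoint until every chromosome is attached, and then divide the cell. In bulk RNA a lower level of these messages cannot be split into fewer cycling cells and less message per cycling cell.

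The promoters show what many of these genes share outside the rule. A short element called the CHR, with the core letters TTTGAA, lies at the start of many G2/M genes and is the docking site of the MuvB complexes, often beside CCAAT boxes, which bind NF-Y. RefSeq promoter windows (GRCm38.p6, from 250 bases before to 50 after each annotated start) were found for 33 of the 39 genes. The stretches printed are those of Cdk1, Mki67, Top2a, Kif11, Cdc20 and Ncapg, which were higher in SAS, and of Kif23, the only member higher in ANT. Each holds 86 bases around the TTTGAA match nearest the start, is written 5′ to 3′ on the strand of the gene, and shows in capitals TTTGAA or its reverse complement TTCAAA and CCAAT or its reverse complement ATTGG. They lie at chr10:69352912-69352997 (minus strand), chr7:135716462-135716547 (minus strand), chr11:99024197-99024282 (minus strand), chr19:37376293-37376378 (plus strand), chr4:118437346-118437431 (minus strand), chr5:45669825-45669910 (plus strand) and chr9:61946782-61946867 (minus strand).
Cdk1: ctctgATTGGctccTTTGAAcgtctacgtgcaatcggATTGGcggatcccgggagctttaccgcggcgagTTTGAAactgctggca
Mki67: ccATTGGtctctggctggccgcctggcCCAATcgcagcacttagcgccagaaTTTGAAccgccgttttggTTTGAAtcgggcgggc
Top2a: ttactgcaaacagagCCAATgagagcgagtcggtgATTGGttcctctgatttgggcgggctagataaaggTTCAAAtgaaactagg
Kif11: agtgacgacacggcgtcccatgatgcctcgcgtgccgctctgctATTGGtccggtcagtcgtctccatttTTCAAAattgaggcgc
Cdc20: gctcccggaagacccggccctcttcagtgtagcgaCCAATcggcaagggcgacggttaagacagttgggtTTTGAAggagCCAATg
Ncapg: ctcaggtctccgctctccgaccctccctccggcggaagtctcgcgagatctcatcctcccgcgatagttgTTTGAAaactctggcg
Kif23: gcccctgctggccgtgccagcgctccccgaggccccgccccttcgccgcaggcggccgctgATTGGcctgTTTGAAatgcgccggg

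TTTGAA was found on either strand in 26 of the 33 windows (78.8%), against 20.2% of the 27025 genes with a window. CCAAT was found in 25 (75.8%, against 41.1% of all genes), and both together in 22 (66.7%, against 7.97%). Within 50 bases of the start, a distance chosen after the positions were seen, TTTGAA stood in 23 windows (69.7%, against 5.72%). The variant TTTAAA, which reads the same on both strands, was present in 9 (27.3%, against 14.9%). None of the searched motifs contains another. By the expression calls described next, 17 of 24 windows of genes higher in SAS held TTTGAA, as did 8 of 8 windows of genes with no call and the window of Kif23. These matches describe letters in a window and are not evidence that a factor was bound in these cells.

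**Figure D1:**
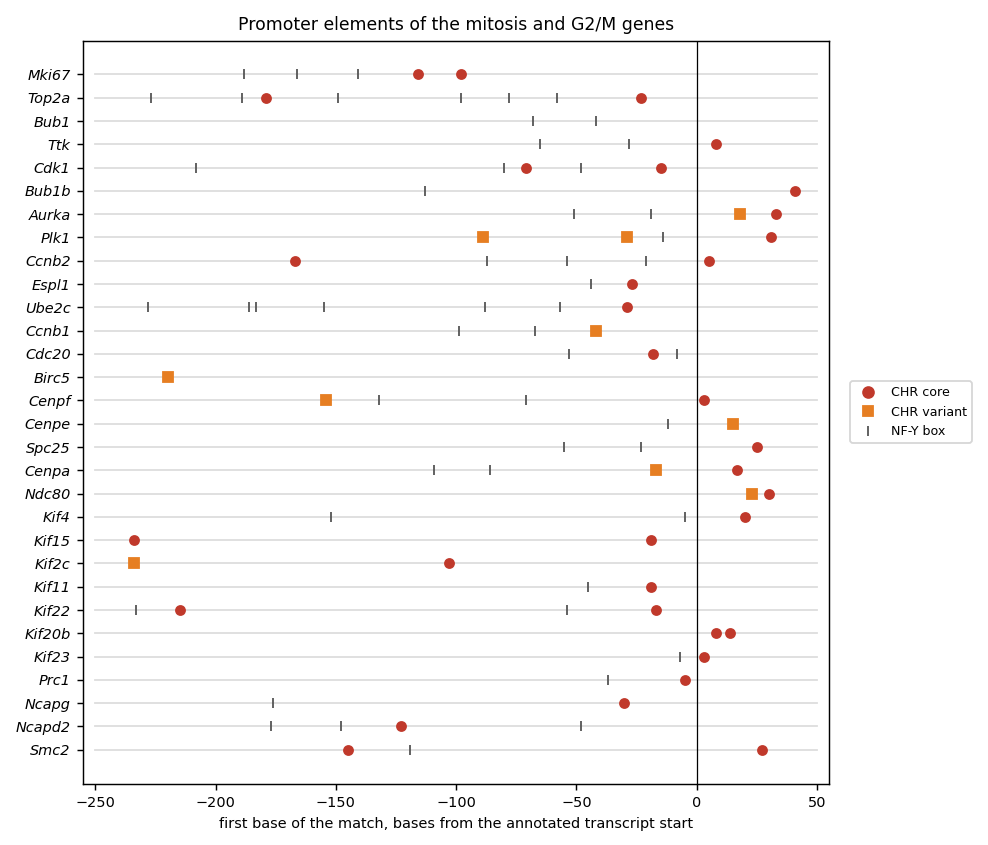
Positions of the CHR core, its variant and the CCAAT box (drawn as NF-Y box) in the RefSeq promoter windows, as the first base of each match in bases from the annotated transcript start (0, vertical line). Each row is 1 gene, and 30 of the 33 genes with a window are drawn, since Nuf2, Nusap1 and Ncaph held no match. Most CHR cores sit within 50 bases of the start.

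The libraries held 27600959 to 31810799 counts, and 12619 genes were tested. Levels are given as CPM, the count scaled to library size with TMM factors, and log2 fold changes are SAS minus ANT. A gene was called at an adjusted p under 0.05 in edgeR's quasi-likelihood test with Benjamini-Hochberg adjustment over all genes tested. By that rule 37.4% of all genes were called, 19.8% higher in SAS and 17.7% higher in ANT, so a call alone is common in this comparison. Cd4 stood at 857 to 1005 CPM in SAS and 871 to 1008 CPM in ANT. Markers of other cells differed between the clones. Summed B cell markers were 127 to 190 CPM in SAS and 645 to 697 CPM in ANT, nearly all of it Ighm. CD8 markers summed to 1.99 to 4.49 CPM in SAS and 14.1 to 66.8 CPM in ANT, most of it Cd8b1. Germinal centre B and plasma cell markers summed to 210 to 351 CPM in SAS and 75.8 to 98.0 CPM in ANT, with Irf4 the largest share in SAS (mean 213.7 CPM) and Xbp1 the largest in ANT (mean 47.4 CPM), while Rgs13, a marker of germinal centre B cells, was at 0 in all 8 libraries. Of the 6 markers of this list that were tested, 3 were called higher in SAS, 1 higher in ANT and 2 had no call. The 1 higher in ANT was Prdm1, which averaged 0.994 CPM in SAS and 10.5 CPM in ANT. Thymocyte markers summed to 159 to 181 CPM in SAS and 332 to 557 CPM in ANT, chiefly Themis and Dntt, with Rag2 at 0 in all 8 libraries and Rag1 at 0.0351 CPM at most. Myeloid markers (25.2 to 37.0 CPM in SAS, 27.4 to 40.5 CPM in ANT), NK cell markers (26.4 to 49.1 CPM in SAS, 34.7 to 42.2 CPM in ANT, with Ncr1 at 0 throughout) and erythroid markers (1.28 to 5.86 CPM in SAS, 0.828 to 12.9 CPM in ANT) overlapped in their sums. Single markers behind these sums differed in both directions: of the 4 NK cell markers tested, Nkg7 and Klrb1c were called higher in SAS and Prf1 and Gzma higher in ANT (Nkg7 averaged 35.7 CPM in SAS and 0.619 CPM in ANT, Prf1 3.69 CPM in SAS and 35.8 CPM in ANT). Among the myeloid markers, Itgam was called higher in SAS and Cd68 higher in ANT. Of the 10 CD4 T cell markers, 1 was called higher in SAS and 2 higher in ANT, and their sums were 7490 to 10090 CPM in SAS and 7983 to 10730 CPM in ANT. The part of other cells in the differences described here was not tested.

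Most of the mitosis and G2/M genes were higher in SAS. Of the 39, 28 were called higher in SAS (71.8%, where 19.8% of all genes were), 1 was called higher in ANT (2.56%, where 17.7% were) and 10 had no call. A difference of at least 2-fold was called for 26 in SAS, where 10.7% of all genes reached that, and for 1 in ANT, where 5.25% did. The groups did not overlap for 27 genes with SAS above (20.5% of all genes) and for 1 with ANT above (17.7%). The median log2 fold change of the 39 was 1.74 (quartiles 0.65 and 2.995, range −1.61 to 5.25), beside −0.00 over all genes tested. Averaged on the log scale over the 39 genes, the level was 5.58 ± 1.73 CPM in SAS and 1.58 ± 0.18 CPM in ANT (SD, n = 4 each), with every SAS library (3.67 to 7.86) above every ANT library (1.37 to 1.80).

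**Figure D2:**
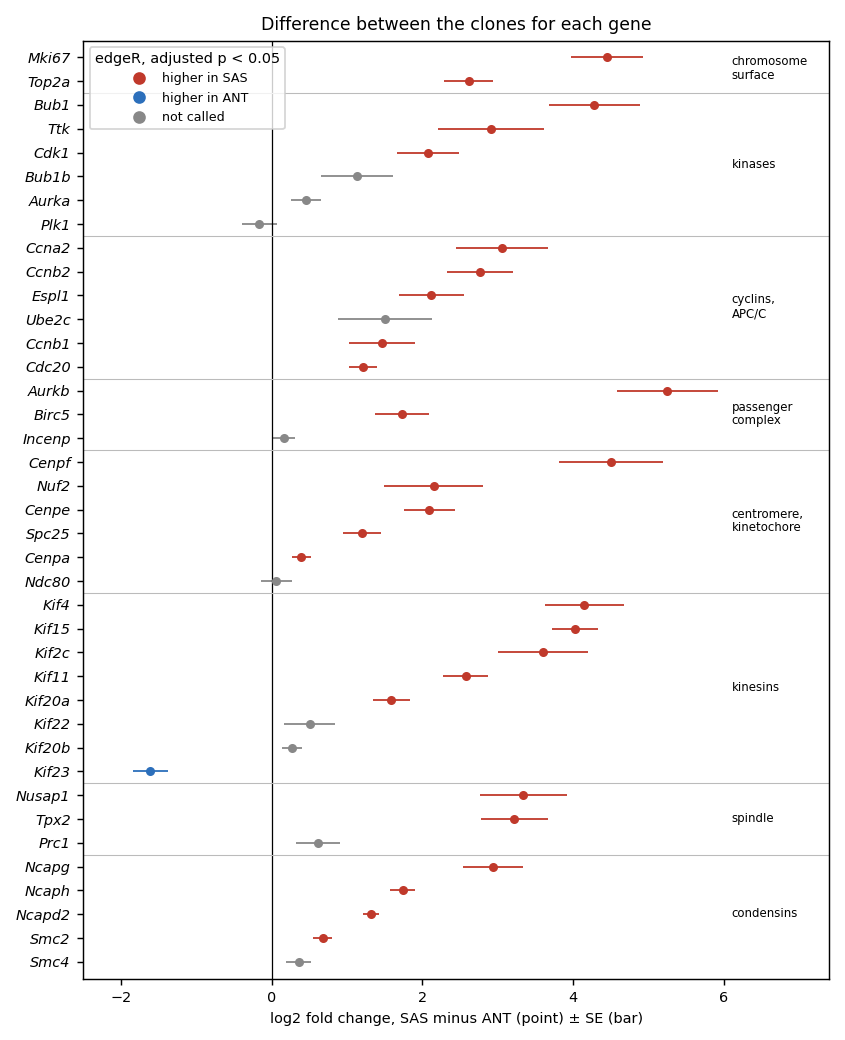
Log2 fold change, SAS minus ANT, of each of the 39 genes (point) with its standard error (bar), grouped by role. Red points were called higher in SAS, the blue point (Kif23) higher in ANT, and grey points had no call. Values run from −1.61 for Kif23 to 5.25 for Aurkb.

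All 39 genes passed the filter on low counts, but 15 of them exceeded the filter's level of 0.342 CPM in every SAS library and not in every ANT library, and 7 of those did so in no ANT library. The 15 were Cdk1, Bub1, Ttk, Ccna2, Espl1, Ube2c, Aurkb, Cenpf, Nuf2, Kif4, Kif15, Kif2c, Nusap1, Tpx2 and Ncapg. These genes entered the test through SAS alone, so their number is no support for a difference. Among the 24 genes above that level in all 8 libraries, 14 were called higher in SAS (58.3%, where 16.9% of the 11143 such genes were) and 1 higher in ANT (4.17%, where 18.7% were). Their median log2 fold change was 1.16, beside −0.03 for all such genes. Requiring this level in ANT itself leaves out genes that were very low there.

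Both genes of the mitotic chromosome surface and its topology were called higher in SAS, where 19.8% of all genes were. Mki67 (chromosome 7, 135689784 to 135716361, minus strand, mm10) encodes Ki-67, the coat of mitotic chromosomes that is used as the standard marker of cycling cells. It stood at 22.7, 31.7, 50.6 and 9.38 CPM in SAS replicates 1, 2, 3 and 6, against 1.55, 1.03, 1.08 and 1.55 CPM in ANT replicates 1, 3, 4 and 5. The groups were far apart, yet the SAS libraries themselves ranged over 5.39-fold, with replicate 3 highest and replicate 6 lowest. The log2 fold change was 4.45 (SE 0.48, edgeR adjusted p 5.24e-05). Top2a (chromosome 11, 98992943 to 99024189, minus strand), the topoisomerase that untangles sister chromatids, stood at 27.1, 22.9, 39.1 and 14.3 CPM in SAS, against 6.38, 4.08, 3.21 and 3.21 CPM in ANT, in the same replicate order. All SAS libraries lay above all ANT libraries, and the log2 fold change was 2.61 (SE 0.33, edgeR adjusted p 0.000141).

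**Figure D3:**
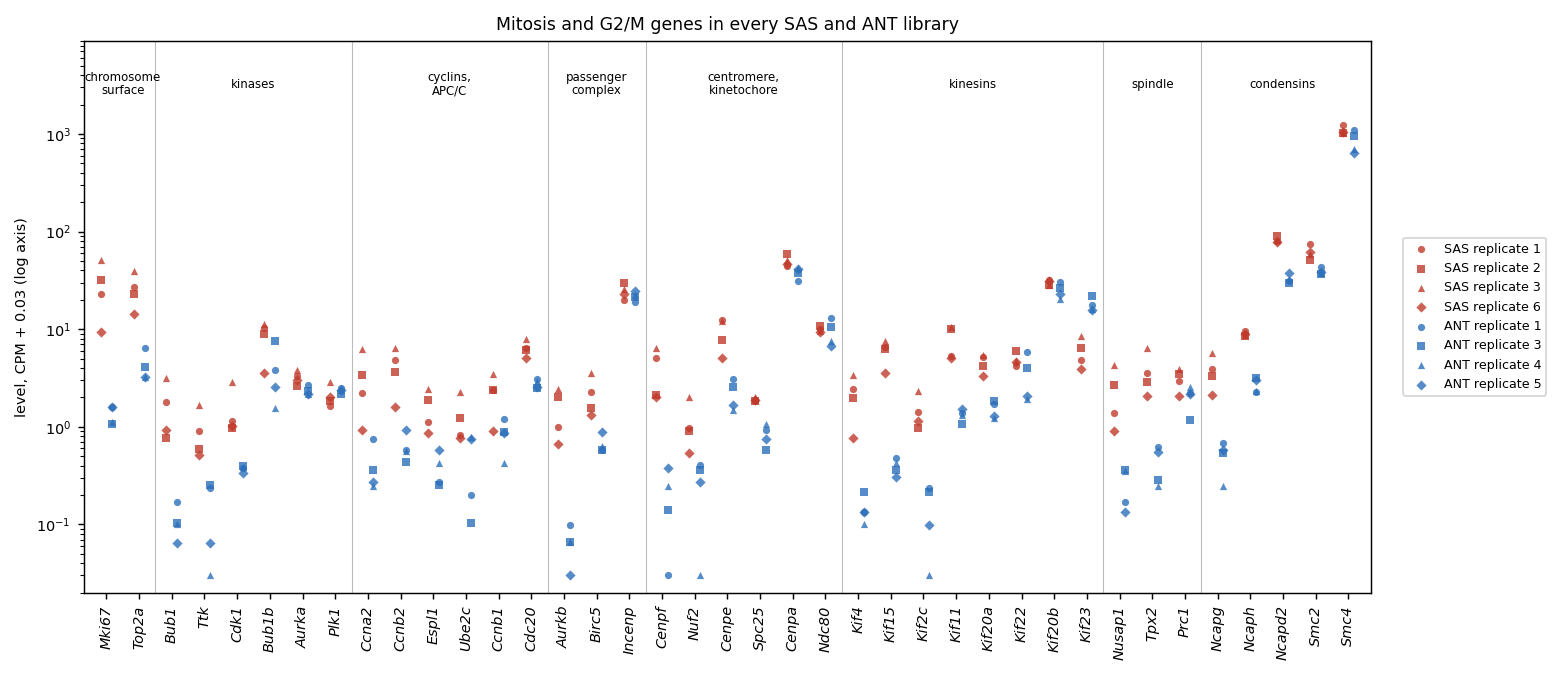
Level of each of the 39 genes in every library, as CPM + 0.03 on a log axis, with SAS in red to the left of ANT in blue and marker shapes for the replicates. Genes are grouped by role. Mki67 ranged from 9.38 to 50.6 CPM in SAS and from 1.03 to 1.55 CPM in ANT, while Smc4, Incenp and Kif20b overlapped between the clones.

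Of the 6 mitotic kinases, 3 were called higher in SAS, where 19.8% of all genes were, and 3 had no call. None was called higher in ANT, where 17.7% of all genes were. The 3 called genes, Cdk1, Bub1 and Ttk, all entered the test through SAS alone, so their number is no support for a difference. Cdk1 (chromosome 10, 69335146 to 69352938, minus strand), the kinase that drives entry into mitosis, stood at 1.13, 0.947, 2.83 and 0.996 CPM in SAS, against 0.345, 0.368, 0.361 and 0.310 CPM in ANT. The ANT libraries lay close together and all SAS libraries lay above them, with SAS replicate 3 well above the other 3. The log2 fold change was 2.08 (SE 0.41, edgeR adjusted p 0.00279), and 1.56 (adjusted p 0.00301) without that library. Bub1, a spindle checkpoint kinase, stood at 1.77, 0.736, 3.11 and 0.900 CPM in SAS, against 0.138, 0.0735, 0.0721 and 0.0345 CPM in ANT. It was close to absent in ANT, with 9 counts over the 4 libraries against 197 in SAS, and its log2 fold change was 4.28 (SE 0.60, edgeR adjusted p 0.00033). Ttk, the kinase also called MPS1 that starts the checkpoint signal, averaged 0.896 ± 0.536 CPM in SAS and 0.116 ± 0.114 CPM in ANT (SD, n = 4 each), with a log2 fold change of 2.91 (SE 0.70, edgeR adjusted p 0.00849).

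The kinases without a call were Bub1b, Aurka and Plk1. Bub1b, which encodes the checkpoint protein BUBR1, stood at 10.2, 8.84, 11.2 and 3.53 CPM in SAS, against 3.83, 7.53, 1.51 and 2.55 CPM in ANT. SAS replicate 6 lay inside the ANT range and ANT replicate 3 came near the remaining SAS values. Its log2 fold change was 1.13 (SE 0.47, edgeR adjusted p 0.0871), which became 1.67 (adjusted p 0.0125) without ANT replicate 3 and 1.39 (adjusted p 0.0392) without SAS replicate 6. With ANT replicates 1 and 3 both left out it was 2.04 (adjusted p 0.0153). DESeq2 called the gene with all libraries (adjusted p 0.0372). Aurka, the spindle pole kinase, averaged 3.15 ± 0.51 CPM in SAS and 2.30 ± 0.25 CPM in ANT (SD, n = 4 each), with a log2 fold change of 0.45 (SE 0.20, edgeR adjusted p 0.103). Plk1, which acts from mitotic entry to cytokinesis, averaged 2.07 ± 0.55 CPM in SAS and 2.33 ± 0.14 CPM in ANT (SD, n = 4 each), and its log2 fold change was −0.17 (SE 0.23, edgeR adjusted p 0.611). For both of these genes the groups overlapped.

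Among the cyclins and the proteins of the anaphase-promoting complex pathway, 5 of 6 genes were called higher in SAS. Of all genes, 19.8% were. Ccna2 and Espl1 among the called genes entered the test through SAS alone. Ccna2, the cyclin of S phase and G2, stood at 2.19, 3.40, 6.28 and 0.900 CPM in SAS, against 0.724, 0.331, 0.216 and 0.241 CPM in ANT. The groups did not overlap, but SAS replicate 6 lay close to ANT replicate 1, and SAS ranged over 6.98-fold. Its log2 fold change was 3.06 (SE 0.61, edgeR adjusted p 0.00284), and 3.77 with ANT replicates 1 and 3 left out. Ccnb2, a B-type cyclin that partners Cdk1, averaged 4.10 ± 2.03 CPM in SAS and 0.598 ± 0.210 CPM in ANT (SD, n = 4 each), with a log2 fold change of 2.77 (SE 0.44, edgeR adjusted p 0.000672). Ccnb1, the main mitotic cyclin, stood at 2.35, 2.35, 3.42 and 0.867 CPM in SAS, against 1.17, 0.845, 0.397 and 0.827 CPM in ANT. SAS replicate 6 fell inside the ANT range, so the call (log2 fold change 1.46, SE 0.44, edgeR adjusted p 0.0235) rested on the other SAS libraries. It was lost without SAS replicate 3 (1.19, adjusted p 0.0747), without ANT replicate 4 (1.22, adjusted p 0.056) and without ANT replicates 4 and 5 (1.12, adjusted p 0.102).

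Cdc20, which activates the anaphase-promoting complex, averaged 6.35 ± 1.22 CPM in SAS and 2.74 ± 0.28 CPM in ANT (SD, n = 4 each), with a log2 fold change of 1.21 (SE 0.19, edgeR adjusted p 0.000634). Espl1, the gene of separase, which cuts cohesin at anaphase, averaged 1.55 ± 0.72 CPM in SAS and 0.353 ± 0.154 CPM in ANT (SD, n = 4 each), with a log2 fold change of 2.12 (SE 0.43, edgeR adjusted p 0.00329). Both had non-overlapping groups. Ube2c, the ubiquitin-conjugating enzyme of the same complex, had no call. It stood at 0.792, 1.19, 2.24 and 0.739 CPM in SAS, against 0.172, 0.0735, 0.757 and 0.724 CPM in ANT. The ANT libraries fell into a low pair (replicates 1 and 3) and a pair close to the lower SAS libraries (replicates 4 and 5). The log2 fold change was 1.51 (SE 0.63, edgeR adjusted p 0.0834) with all libraries and 3.25 (adjusted p 0.00444) without ANT replicates 4 and 5. Without ANT replicates 1 and 3 it was 0.73 (adjusted p 0.295). Limma-voom called it with all libraries (1.82, adjusted p 0.0497). Exons of Ube2c share positions with those of Tnnc2 on the other strand, and whether the counting used strand was not given in the sources used here.

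In the chromosomal passenger complex, which corrects wrong spindle attachments and then directs cytokinesis, the kinase and its partner survivin were called higher in SAS. The scaffold had no call. Of all genes, 19.8% were called higher in SAS, and the kinase gene entered the test through SAS alone. Whether these genes differ in their clone effect was not tested. Aurkb, the kinase of the complex, stood at 0.975, 2.00, 2.42 and 0.643 CPM in SAS, against 0.0690, 0.0368, 0.0361 and 0 CPM in ANT. It had 179 counts over the SAS libraries and 4 over the ANT libraries, and the ratio of the scaled counts was 41.6 (95% conditional binomial interval 15.96 to 154.3, counting error only). Its fitted log2 fold change was the highest of the 39 genes, at 5.25 (SE 0.67, edgeR adjusted p 0.000163), and with so few counts in ANT the fitted size depends on the prior count. Birc5, the gene of survivin, averaged 2.15 ± 1.001 CPM in SAS and 0.644 ± 0.148 CPM in ANT (SD, n = 4 each), with a log2 fold change of 1.73 (SE 0.36, edgeR adjusted p 0.00359). Incenp, the scaffold, averaged 24.4 ± 4.2 CPM in SAS and 21.8 ± 2.3 CPM in ANT (SD, n = 4 each) with overlapping groups, and its log2 fold change was 0.16 (SE 0.14, edgeR adjusted p 0.423).

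Of the 6 centromere and kinetochore genes, 5 were called higher in SAS, where 19.8% of all genes were. Cenpf and Nuf2 among them entered the test through SAS alone. Cenpf, a large kinetochore protein that accumulates in G2, stood at 5.06, 2.10, 6.45 and 1.99 CPM in SAS, against 0, 0.110, 0.216 and 0.345 CPM in ANT. The log2 fold change was 4.50 (SE 0.69, edgeR adjusted p 0.000574), 5.11 without ANT replicate 5, 6.05 without ANT replicates 4 and 5 and 3.77 without ANT replicates 1 and 3, and the call held under each alternative run. Cenpe, the motor that carries chromosomes to the spindle equator, averaged 9.25 ± 3.49 CPM in SAS and 2.17 ± 0.76 CPM in ANT (SD, n = 4 each), with a log2 fold change of 2.09 (SE 0.33, edgeR adjusted p 0.000738).

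Members of the NDC80 complex, which grips the microtubule ends, were not all called. Spc25 stood at 1.83, 1.79, 1.97 and 1.83 CPM in SAS, against 0.897, 0.551, 1.05 and 0.724 CPM in ANT, so SAS was tight and every SAS library lay above ANT. Its log2 fold change was 1.199 (SE 0.26, edgeR adjusted p 0.00415). Nuf2 stood at 0.944, 0.877, 1.97 and 0.514 CPM in SAS, against 0.379, 0.331, 0 and 0.241 CPM in ANT. Its groups did not overlap, but its call (log2 fold change 2.15, SE 0.66, edgeR adjusted p 0.0262) was lost without SAS replicate 3 (1.69, adjusted p 0.0864), without ANT replicate 5 (2.14, adjusted p 0.0535) and without ANT replicates 4 and 5 (1.56, adjusted p 0.0545). Nuf2 reached 3.09 on the same scale (edgeR adjusted p 0.0351) without ANT replicates 1 and 3. Ndc80 itself averaged 9.84 ± 0.65 CPM in SAS and 9.44 ± 2.87 CPM in ANT (SD, n = 4 each), with overlapping groups and a log2 fold change of 0.06 (SE 0.20, edgeR adjusted p 0.839). With ANT replicates 1 and 3 left out, its log2 fold change was 0.47 (adjusted p 0.0444). The difference between these genes in their clone effect was not tested.

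Cenpa, the histone H3 variant that marks centromeres, stood at 44.5, 58.6, 51.0 and 45.9 CPM in SAS, against 31.4, 37.8, 42.0 and 41.1 CPM in ANT. The lowest SAS library exceeded the highest ANT library by a small margin, and the difference was the smallest among the called members (log2 fold change 0.39, SE 0.13, edgeR adjusted p 0.0334). The call was lost without SAS replicate 2 (0.31, adjusted p 0.0914), SAS replicate 3 (0.38, adjusted p 0.078), ANT replicate 1 (0.31, adjusted p 0.0809) or ANT replicate 3 (0.39, adjusted p 0.0653), and with no filter on low counts (0.36, adjusted p 0.0606).

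The kinesins, motor proteins of the spindle and midbody, split in 3 ways: 5 of 8 were called higher in SAS, 1 higher in ANT and 2 had no call. Of all genes, 19.8% were called higher in SAS and 17.7% higher in ANT. Among the called kinesins, Kif4, Kif15 and Kif2c entered the test through SAS alone. Kif15, a motor that keeps spindle poles apart, stood at 6.52, 6.28, 7.59 and 3.53 CPM in SAS, against 0.448, 0.331, 0.397 and 0.276 CPM in ANT. It had the smallest p of the 39 genes, with a log2 fold change of 4.03 (SE 0.31, edgeR adjusted p 4.99e-06). Kif11, the Eg5 motor that builds the bipolar spindle, stood at 5.33, 9.96, 10.6 and 4.98 CPM in SAS, against 1.35, 1.03, 1.30 and 1.48 CPM in ANT. All SAS libraries lay above all ANT libraries for both motors, and the log2 fold change of Kif11 was 2.57 (SE 0.30, edgeR adjusted p 8.06e-05). Kif4, a motor bound to chromosome arms, averaged 2.11 ± 1.08 CPM in SAS and 0.116 ± 0.048 CPM in ANT (SD, n = 4 each), with a log2 fold change of 4.15 (SE 0.53, edgeR adjusted p 0.000159). Kif2c, which takes microtubule ends apart at centromeres, averaged 1.45 ± 0.61 CPM in SAS and 0.115 ± 0.098 CPM in ANT (SD, n = 4 each), with a log2 fold change of 3.60 (SE 0.60, edgeR adjusted p 0.000933). Kif20a, a midzone motor needed for cytokinesis, averaged 4.49 ± 0.96 CPM in SAS and 1.49 ± 0.30 CPM in ANT (SD, n = 4 each), with a log2 fold change of 1.59 (SE 0.24, edgeR adjusted p 0.000511). These 3 genes also had non-overlapping groups.

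Kif23 (chromosome 9, 61915905 to 61946774, minus strand), the motor subunit of centralspindlin that organizes the midbody, went the other way. It stood at 4.78, 6.35, 8.39 and 3.89 CPM in SAS, against 17.8, 21.9, 16.1 and 15.6 CPM in ANT. Every ANT library lay above every SAS library, and within SAS replicate 3 was still the highest and replicate 6 the lowest, as for Mki67. The log2 fold change was −1.61 (SE 0.23, edgeR adjusted p 0.000373), and Kif23 was the only member called higher in ANT under each alternative tried. Kif22, a chromosome arm motor, stood at 4.20, 6.00, 4.66 and 4.59 CPM in SAS, against 5.79, 3.97, 1.91 and 2.03 CPM in ANT. Its groups overlapped because ANT replicate 1 lay within the SAS range, with ANT replicate 3 just below it, and it had no call (log2 fold change 0.50, SE 0.34, edgeR adjusted p 0.274). Without ANT replicate 1 it was called (0.87, adjusted p 0.0468), as it was without ANT replicates 1 and 3 (1.30, adjusted p 0.00311). Kif20b, another cytokinesis motor, averaged 29.9 ± 2.1 CPM in SAS and 24.8 ± 4.4 CPM in ANT (SD, n = 4 each), with a log2 fold change of 0.27 (SE 0.14, edgeR adjusted p 0.145), and 0.48 (adjusted p 0.0148) without ANT replicates 1 and 3.

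Of the 3 further spindle proteins, Nusap1 and Tpx2 were called higher in SAS, where 19.8% of all genes were, and Prc1 was not called. Both called genes entered the test through SAS alone, so their number is no support for a difference. Nusap1, which bundles spindle microtubules, stood at 1.37, 2.66, 4.28 and 0.867 CPM in SAS, against 0.138, 0.331, 0.324 and 0.103 CPM in ANT. SAS replicate 6 was again lowest within SAS and still above all ANT libraries, and the log2 fold change was 3.34 (SE 0.58, edgeR adjusted p 0.00124). Tpx2, which activates Aurora A on the spindle, averaged 3.73 ± 1.90 CPM in SAS and 0.394 ± 0.185 CPM in ANT (SD, n = 4 each), with a log2 fold change of 3.22 (SE 0.45, edgeR adjusted p 0.000306). Its target kinase gene, Aurka, had no call. Prc1, which crosslinks the central spindle at anaphase, averaged 3.07 ± 0.78 CPM in SAS and 2.00 ± 0.60 CPM in ANT (SD, n = 4 each) with overlapping groups, and its log2 fold change was 0.61 (SE 0.29, edgeR adjusted p 0.126).

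Of the 5 condensin genes, 4 were called higher in SAS, where 19.8% of all genes were. Ncapg among them entered the test through SAS alone. Ncaph, the kleisin subunit of condensin I, stood at 9.44, 8.55, 8.59 and 8.87 CPM in SAS, against 2.24, 3.12, 2.27 and 2.97 CPM in ANT. Ncapd2, another condensin I subunit, stood at 79.1, 89.2, 81.1 and 78.8 CPM in SAS, against 31.3, 29.6, 32.3 and 37.9 CPM in ANT. Both were nearly level across the SAS libraries and clear of the ANT range, with log2 fold changes of 1.74 (SE 0.17, edgeR adjusted p 2.23e-05) for Ncaph and 1.32 (SE 0.11, edgeR adjusted p 6.65e-06) for Ncapd2. Ncapg, the third of these condensin I subunits, averaged 3.74 ± 1.501 CPM in SAS and 0.484 ± 0.188 CPM in ANT (SD, n = 4 each), with a log2 fold change of 2.93 (SE 0.40, edgeR adjusted p 0.000259). Smc2, an ATPase core subunit of both condensins, averaged 62.0 ± 10.04 CPM in SAS and 38.7 ± 3.0 CPM in ANT (SD, n = 4 each), with a log2 fold change of 0.68 (SE 0.13, edgeR adjusted p 0.00192) that was not called when tested against a fold change of 1.5 (adjusted p 0.38).

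Smc4, the partner of Smc2 in the condensin core, had no call and was by far the most abundant of the 39 genes. It stood at 1225, 1010, 1032 and 1052 CPM in SAS, against 1092, 942, 702 and 641 CPM in ANT. ANT replicates 1 and 3 lay at or near the SAS levels and ANT replicates 4 and 5 below them. The log2 fold change was 0.36 (SE 0.17, edgeR adjusted p 0.129), 0.50 (adjusted p 0.0356) without ANT replicate 1 and 0.68 (adjusted p 0.00259) without ANT replicates 1 and 3. Per kilobase of exon, Smc4 reached 207 CPM in SAS and 162 CPM in ANT, first of the 39 in both clones. On the same scale Ncapd2 reached 13.1 CPM per kb in SAS and 5.23 in ANT, Smc2 11.3 in SAS and 7.07 in ANT, Cenpa 8.54 in SAS and 6.496 in ANT, and Incenp 5.64 in SAS and 5.04 in ANT. Mki67 ranked 9 in SAS and 25 in ANT by this level per kilobase, while Kif23 ranked 22 in SAS and 7 in ANT.

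ANT replicates 1 and 3 and ANT replicates 4 and 5, which recur in these exceptions, differed over the table as a whole. The chi-square per degree of freedom, a measure of how far the counts of a pair of libraries differ, was 10.6 between ANT replicates 1 and 3. It was 22 between ANT replicates 4 and 5, and 102 to 139 across these pairs. Pairs of SAS libraries gave 25.4 to 95.1. The ANT pairs also differed in markers of other cells. Summed CD8 markers were 39.7 and 66.8 CPM in ANT replicates 1 and 3 and 24.0 and 14.1 CPM in ANT replicates 4 and 5. Summed erythroid markers were 0.828 and 0.956 CPM in ANT replicates 1 and 3 and 5.80 and 12.9 CPM in ANT replicates 4 and 5. The number of members called higher in SAS was 32 without ANT replicates 1 and 3 (19.3% of all genes) and 27 without ANT replicates 4 and 5 (23.2% of all genes). Ttk, Kif2c and Aurkb, which had few ANT counts, moved in size but kept the call in these fits: without ANT replicates 1 and 3 the log2 fold change was 5.36 for Ttk, 5.201 for Kif2c and 6.102 for Aurkb, and without ANT replicates 4 and 5 it was 2.02 for Ttk and 2.84 for Kif2c. The part of these markers in the differences was not tested.

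The spread within SAS had a pattern of its own. SAS replicate 3 was the highest SAS library for 29 of the 39 genes, where it was the highest for 21.3% of all genes tested, and SAS replicate 6 was the lowest for 26, where it was the lowest for 20.1% of all genes. SAS replicate 6 was the highest for none of the 39. The median ratio of SAS replicate 3 to SAS replicate 6 was 2.36 over the 39 genes, 2.79 over the 28 called higher in SAS, 1.203 over the 10 without a call and 1.01 over all genes tested. Between libraries of a clone, the median SD of log2(CPM + 0.1) was 0.58 in SAS and 0.35 in ANT for the 39 genes. It was 0.19 in SAS and 0.25 in ANT for all genes. The offset of 0.1 shrinks this SD at low levels, where many members stood in ANT, so these medians depend in part on level. The number of genes called higher in SAS was 25 without SAS replicate 3 (17.3% of all genes), with a median log2 fold change of 1.56 over the 39, and 29 without SAS replicate 6 (17.5% of all genes), with a median of 1.91. In ANT, replicate 1 was the highest library for 20 of the 39 genes, where it was so for 28.4% of all genes.

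**Figure D4:**
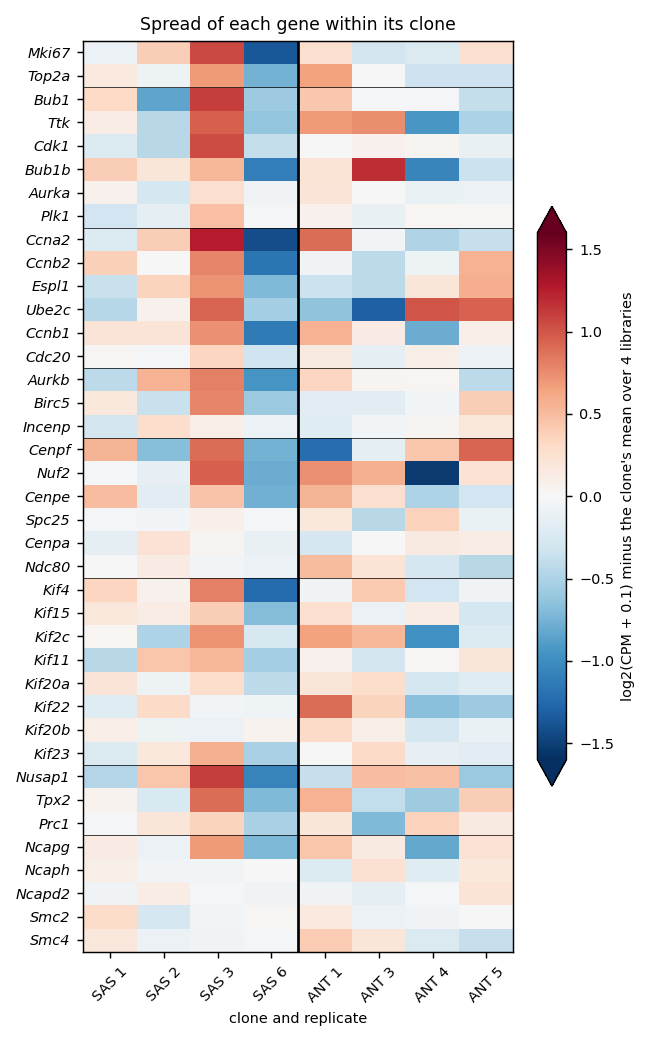
Deviation of each library from the mean of its own clone, as log2(CPM + 0.1), for the 39 genes in rows and the 8 libraries in columns (SAS left, ANT right of the heavy line). Red is above the mean of the clone and blue below it. The SAS replicate 3 column is red and the SAS replicate 6 column blue for most genes outside the condensins.

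Genes that act with these 39 were counted from lists of related genes. Of 73 further mitotic genes, 64 were tested, with a median log2 fold change of 0.90. In SAS, 38 were called higher (59.4%, where 19.8% of all genes were). In ANT, 6 were called higher (9.38%, where 17.7% of all genes were), which became 3 genes without SAS replicate 2. Of the 64, 18 exceeded the filter's level in every SAS library and not in every ANT library, and so entered the test through SAS. Among the 46 above it in all 8 libraries, 22 were called higher in SAS (47.8%, where 16.9% of all such genes were). Their median was 0.46, beside −0.03 for all such genes. Wee1, the kinase that holds Cdk1 inactive, stood at 7.25, 6.77, 8.39 and 7.29 CPM in SAS, against 0.724, 0.698, 0.901 and 0.827 CPM in ANT, a clear and even gap (log2 fold change 3.23, SE 0.19, edgeR adjusted p 8.93e-07). Cit, the citron kinase of the midbody, averaged 5.84 ± 1.54 CPM in SAS and 0.504 ± 0.037 CPM in ANT (SD, n = 4 each), a log2 fold change of 3.52. Cks1b, a small Cdk-binding subunit, averaged 10.7 ± 1.8 CPM in SAS and 3.31 ± 0.38 CPM in ANT (SD, n = 4 each), a log2 fold change of 1.68. Kntc1, a kinetochore protein of the checkpoint, and Cdca8, the borealin subunit of the passenger complex, rose with log2 fold changes of 2.79 and 1.85 (2.54 for Cdca8 without ANT replicates 4 and 5), and Cdc25b, a phosphatase that opposes Wee1, with 0.74. Knl1, the kinetochore scaffold, was called (0.94, edgeR adjusted p 0.0278) but lost the call without SAS replicate 2 (0.83, adjusted p 0.0661), SAS replicate 3 (0.77, adjusted p 0.0858), ANT replicate 4 (0.85, adjusted p 0.0702) or ANT replicate 5 (0.80, adjusted p 0.0657). Fzr1, the activator of the anaphase-promoting complex in G1, was called higher in SAS (0.55, edgeR adjusted p 0.0202), and not without SAS replicate 2 (0.49, adjusted p 0.0548) or SAS replicate 3 (0.50, adjusted p 0.0602).

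Fbxo5, the gene of EMI1, which inhibits the anaphase-promoting complex, was higher in ANT, as Kif23 was. It stood at 6.34, 3.58, 5.63 and 6.97 CPM in SAS, against 12.5, 14.9, 12.6 and 14.6 CPM in ANT, without overlap (log2 fold change −1.28, SE 0.20, edgeR adjusted p 0.000607). Pttg1, the gene of securin, which holds separase inactive, was also higher in ANT (log2 fold change −0.51), as was Ncapd3, a condensin II subunit (−0.44), which lost the call without ANT replicates 1 and 3 (−0.30, edgeR adjusted p 0.0622). Ska2, a kinetochore subunit, was called higher in ANT (−0.45, edgeR adjusted p 0.0202) but lost the call without SAS replicate 2 (−0.41, adjusted p 0.0542), SAS replicate 3 (−0.40, adjusted p 0.0596) or ANT replicate 1 (−0.39, adjusted p 0.0628), and when libraries were scaled by size alone (−0.36, adjusted p 0.061).

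The core of the anaphase-promoting complex and cohesin, whose genes are needed outside mitosis as well, held no gene called higher in SAS. All 24 genes were tested, and edgeR called 0 higher in SAS and 4 higher in ANT (16.7%, close to the 17.7% of all genes), with a median log2 fold change of −0.13. At an unadjusted p under 0.05 the counts were 0 in SAS and 5 in ANT, and DESeq2 and limma-voom also called 0 higher in SAS. The 4 became 2 without SAS replicate 2 or without SAS replicate 3, and 8 without ANT replicates 4 and 5. Anapc11, the catalytic RING subunit, stood at 16.7, 19.0, 17.6 and 17.1 CPM in SAS, against 25.7, 29.1, 43.5 and 37.1 CPM in ANT, again without overlap (log2 fold change −0.94, SE 0.16, edgeR adjusted p 0.0012). Anapc5, a scaffold subunit, followed with −0.66 (edgeR adjusted p 0.00237). Anapc16 (−0.45) and the cohesin subunit gene Stag2 (−0.38) were called with adjusted p-values of 0.0275 and 0.0479 in edgeR. Both lost the call without SAS replicate 2 (adjusted p 0.0713 for Anapc16 and 0.114 for Stag2), without SAS replicate 3 (0.0603 for Anapc16 and 0.107 for Stag2) and when libraries were scaled by size alone. Anapc16 also lost it without SAS replicate 1 (adjusted p 0.0557) or ANT replicate 4 (0.0595), and Stag2 without SAS replicate 6 (0.089), ANT replicate 1 (0.119) or ANT replicate 3 (0.103).

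Among 26 regulators of G2/M transcription, 25 were tested, with 8 called higher in SAS (32.0%) and 4 higher in ANT (16%), beside 19.8% and 17.7% of all genes in the same directions. Of the 25, 2 (E2f8 and Cdkn1a) exceeded the filter's level in every SAS library and not in every ANT library. Among the 23 above it in all 8 libraries, 6 were called higher in SAS (26.1%, where 16.9% of all such genes were). In ANT, 4 of the 23 were called higher (17.4%, where 18.7% of all such genes were). Foxm1, the transcription factor of the G2/M wave, stood at 6.91, 11.1, 9.77 and 8.45 CPM in SAS, against 2.14, 2.50, 4.22 and 4.31 CPM in ANT, without overlap (log2 fold change 1.46, SE 0.26, edgeR adjusted p 0.00143). Within SAS, its highest library was replicate 2 and its lowest replicate 1. Mybl2, the gene of B-MYB, averaged 3.78 ± 1.08 CPM in SAS and 2.98 ± 0.41 CPM in ANT (SD, n = 4 each) with overlapping groups (log2 fold change 0.34, edgeR adjusted p 0.29). The activator E2F genes E2f3 (2.11) and E2f1 (1.45) and the E2F partners Tfdp2 (1.06) and Tfdp1 (0.96) were called higher in SAS by these log2 fold changes. E2f8, a repressor of E2F target genes, had 112 counts over the SAS libraries and 3 over the ANT libraries, a ratio of scaled counts of 34.7 (95% conditional binomial interval 11.6 to 171, counting error only). SAS replicate 3 gave most of its counts, and its fitted log2 fold change of 4.94 became 3.98 without that library and 5.86 without ANT replicate 5, and it was called in both fits.

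Genes that hold cells out of the cycle did not move together. Cdkn1b, the gene of the CDK inhibitor p27, stood at 184.7, 215.8, 241.4 and 166.7 CPM in SAS, against 411.2, 366.3, 418.4 and 460.3 CPM in ANT, with every ANT library above SAS (log2 fold change −1.03, SE 0.13, edgeR adjusted p 0.000171). Cdkn1a, the gene of the CDK inhibitor p21, was higher in SAS and averaged 1.17 ± 0.06 CPM in SAS and 0.238 ± 0.178 CPM in ANT (SD, n = 4 each, log2 fold change 2.27, edgeR adjusted p 0.00352, and 2.99 without ANT replicates 4 and 5). The DREAM components split: beside the E2F partners Tfdp1 and Tfdp2, called higher in SAS as given above, Rbl1, which encodes p107, and the MuvB subunit gene Lin54 were higher in ANT, with log2 fold changes of −0.63 and −0.49. The MuvB subunit genes Lin9, Lin37, Lin52 and Rbbp4 and the E2F genes E2f4 and E2f5 had no call. Rbl2, which encodes p130, had no call (−0.26, edgeR adjusted p 0.0836), but was called without SAS replicate 2 (−0.33, adjusted p 0.0491) and without ANT replicates 4 and 5 (−0.40, adjusted p 0.0135). Nfyc, a subunit of the CCAAT-binding factor NF-Y, was called higher in ANT (−0.31, edgeR adjusted p 0.0339), a call that was lost on leaving out any single library other than ANT replicate 4 or ANT replicate 5 (adjusted p 0.0567 to 0.0936), with no low-count filter (0.0523) and with scaling by size alone (0.135). The NF-Y subunit genes Nfya (−0.20, edgeR adjusted p 0.455) and Nfyb (0.28, edgeR adjusted p 0.0569) had no call.

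DNA replication genes, which peak in S phase, were also mostly higher in SAS, with a median log2 fold change of 0.55. Of 47, 26 were called higher in SAS (55.3%, where 19.8% of all genes were). Only 1 was called higher in ANT (2.13%, where 17.7% of all genes were), which became 2 genes without ANT replicate 1 or ANT replicate 5. Among the 44 above the filter's level in all 8 libraries, 23 were called higher in SAS (52.3%, where 16.9% of all such genes were). Their median was 0.43, beside −0.03 for all such genes. Tk1, the thymidine kinase of S phase, stood at 5.12, 5.15, 5.69 and 4.05 CPM in SAS, against 0.310, 0.368, 0.361 and 0.379 CPM in ANT, both groups being tight (log2 fold change 3.80, SE 0.23, edgeR adjusted p 1.17e-06). Chaf1a, a histone chaperone of the fork, and Orc1, a subunit of the origin recognition complex, had log2 fold changes of 3.26 and 3.996, and Uhrf1, which guides maintenance methylation of new DNA, 2.25. Mcm2, a subunit of the replicative helicase, was called higher in SAS (0.41, edgeR adjusted p 0.00858). Pcna, the sliding clamp, averaged 208.9 ± 24.9 CPM in SAS and 223.0 ± 22.2 CPM in ANT (SD, n = 4 each) with no call (log2 fold change −0.09, edgeR adjusted p 0.557), and Rpa1, which coats single-stranded DNA, was the 1 gene higher in ANT (−0.36, edgeR adjusted p 0.00988). Within SAS, replicate 1 was the highest library for 31 of these 47 genes, where it was so for 29.9% of all genes. Replicate 2 was the lowest for 25, where it was so for 29.9% of all genes. That order was unlike that of the mitosis and G2/M genes. The share of windows with the CHR core varied between the lists: TTTGAA stood in 58.3% of the 60 windows of further mitotic genes, 33.3% of the 21 windows of regulators, 15.8% of the 38 windows of replication genes and 15.0% of the 20 windows of anaphase-promoting complex and cohesin genes.

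**Figure D5:**
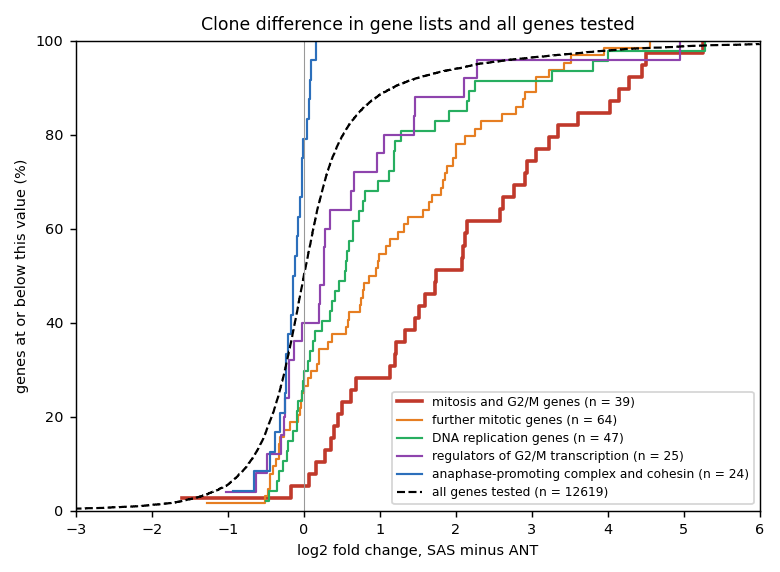
Share of genes, in percent, at or below each log2 fold change (SAS minus ANT), for the 39 mitosis and G2/M genes, the 4 related lists and all 12619 genes tested. The mitosis and G2/M genes have the highest median of these lists, at 1.74, although they also hold the lowest single value of the 5 lists (Kif23) and a DNA replication gene reaches the highest (5.28), and the line of the anaphase-promoting complex and cohesin lies left of 0.16 throughout, with a median of −0.13.

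Several of these counts carry an uncertainty of annotation. Exons of 8 of the 39 genes share positions with a gene on the other strand (Ccna2 with Exosc9, Kif4 with Pdzd11, Kif20a with Cdc23, Prc1 with Rccd1, Cdc20 with Elovl1, Ube2c with Tnnc2, Nusap1 with Oip5 and Ncapg with Lcorl), and Ncapd2 overlaps the predicted gene Gm28967 on its own strand. The libraries were strand-specific per the labels, but the strand setting of the counting was not given in the sources used here. Ccnb1, Ccnb2, Kif4 and Kif22 have an annotated pseudogene of the same name, and how reads that match both were treated was not given either.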

How the data were processed

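RNA was measured in 8 libraries (4 SAS, 4 ANT) of sorted CD4+ T cells, made with Illumina's strand-specific TruSeq mRNA kit, per the labels' protocols. The deposited table holds unnormalized whole-number counts of 39056 Ensembl genes. Per the submitters' processing notes, STAR and featureCounts were used with the mm10 genome build. Not given in the sources used here were tool versions, annotation release, strand setting and treatment of multi-mapped reads. IDs were matched to GENCODE M21 without version suffix (38872 matched, 184 did not), which gave symbols, coordinates and exon lengths.

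Genes passing edgeR's default low-count filter (12619) were scaled with TMM factors and tested with edgeR 4.0.16 (robust quasi-likelihood, R 4.3.3, no covariates), SAS against ANT, with Benjamini-Hochberg adjustment over all of them. The SE was taken from the F statistic, as the size of the log2 fold change over its root. CPM uses the TMM-scaled library size. With 27600959 to 31810799 counts per library, 1 count was worth 0.0304 to 0.0367 CPM, so values near that level rest on few counts. Few-count ratios have a 95% interval for counting error only. Alternatives were other scalings and filters, DESeq2 1.42.0, limma-voom (limma 3.58.1), a fold threshold of 1.5, an adjusted p under 0.01, leaving out each library, leaving out ANT replicates 1 and 3 or 4 and 5, and a replicate block.

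The 39 members, the 4 related lists and the marker lists were chosen with earlier results of these data known. Besides the members, the rule for naming genes took the 4 called genes with the smallest p in each direction of each related list, a set of fixed cell cycle genes and the most abundant markers. A few other genes of these lists, such as Rb1, Nfya and Nfyb, are given for context with the main test only. Promoters come from RefSeq (GRCm38.p6), and the motifs were searched on both strands.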

Additional observations from a re-analysis of the deposited data

Results flagged for a closer look

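Of 150 groups of 4 libraries checked (75 named genes, 2 clones), 4 held a library far from the other 3. Chance alone marks about 1 in 20 groups (5%). Cdk1 in SAS replicate 3 stood at 2.83 CPM, with the other SAS libraries at 0.947 to 1.13 CPM. E2f8 in SAS replicate 3 stood at 2.35 CPM, with the others at 0.386 to 0.631 CPM. That library was the highest SAS library for 29 of the 39 mitosis and G2/M genes. Rpa1 in SAS replicate 6 stood at 183.8 CPM, with the other SAS libraries at 203.3 to 206.8 CPM. Uhrf1 in ANT replicate 4 stood at 3.86 CPM, with the other ANT libraries at 4.93 to 5.07 CPM. Without SAS replicate 3, the log2 fold change of Cdk1 was 1.56 (edgeR adjusted p 0.00301).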

How the results depend on the processing

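No value of a named gene changed sign in a call under any alternative run: of 769 values for the 39 members, 734 kept their side of the threshold, 20 lost the call and 15 gained it. The number of members higher in SAS was 24 to 29 under the other scalings, tools and thresholds and with no filter, 25 to 29 on leaving out each library, and 18 with at least 1 CPM required in 4 libraries, which tested only 28 of them. Kif23 was called higher in ANT in each. Of all genes, 9.55% to 24.9% were higher in SAS and 5.0% to 21.3% higher in ANT under these settings. Scaling by library size alone moved the median of all genes by 0.098 (log2) and gave SAS 64.8% of all calls (52.8% with TMM). It gave 3 further mitotic genes higher in ANT (6 in the main test), and for the anaphase-promoting complex and cohesin 1 higher in SAS (0) and 2 higher in ANT (4). Against a fold change of 1.5, the counts were 1205 in SAS and 631 in ANT for all genes, 1 further mitotic gene, 1 anaphase-promoting complex or cohesin gene and 1 regulator higher in ANT, and 14 replication genes higher in SAS (26) and 0 in ANT. At an adjusted p under 0.01, ANT counts were 1306 for all genes, 2 further mitotic genes and 2 of the anaphase-promoting complex and cohesin. Replication genes higher in ANT (1) numbered 2 with upper-quartile scaling or DESeq2, 5 without ANT replicates 4 and 5, and 3 without ANT replicates 1 and 3. Without ANT replicates 4 and 5, 8 anaphase-promoting complex and cohesin genes were higher in ANT. Leaving out each library gave ANT counts of 3 to 5 for further mitotic genes, 2 to 4 for the anaphase-promoting complex and cohesin, and 1 to 2 for replication genes. Apart from the filter and the fold threshold, which act by construction, the cause was not tested.

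The clones share replicate numbers 1 and 3 only. Deviations from the clone means correlated across genes at 0.293 for number 1 and −0.121 for number 3. Crossed pairs gave 0.306 for SAS replicate 1 with ANT replicate 3 and −0.153 for SAS replicate 3 with ANT replicate 1. So few shared numbers cannot settle whether the numbers pair the libraries. In the replicate block each unshared number took a term of its own, so the clone effect rested on replicates 1 and 3 of each clone. Little was left to measure the spread between libraries, so the adjusted p-values of the block carry little weight. With the block, 31 members were called higher in SAS and 1 was called higher in ANT, with a median log2 fold change of 2.13. In edgeR, Bub1b (0.98, adjusted p 0.000518), Ube2c (3.43, adjusted p 2.17e-07) and Prc1 (1.05, adjusted p 0.00977) gained a call, as did Rbl2 (−0.39, adjusted p 0.0122). Lin54 (−0.36, adjusted p 0.0529) and Anapc16 (−0.21, adjusted p 0.22) lost theirs, and the log2 fold change of Cenpf was 6.66. The block also gave 1 anaphase-promoting complex or cohesin gene higher in SAS and 3 replication genes higher in ANT.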
